A study of Homo sapiens with 12 samples.

Results

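The regions described here are the places on chromatin where the glucocorticoid receptor NR3C1 was called in SUPT-1 cells that carried the STAT5B mutant N642H, without and with prednisolone. They were taken from 2 deposited peak lists, 1 for each condition, and every region on a numbered chromosome, X or Y was kept. The untreated list held 2 such regions and the prednisolone list held 2888, of 11908 regions in the 8 peak lists of the series. SUPT-1 is a long-established human T-lymphoblastic cell line. Both cultures expressed STAT5B N642H, a hyperactive form of the cytokine-responsive transcription factor STAT5B, from a doxycycline-inducible construct in puromycin-selected cells, and both had been induced with doxycycline. One culture was left untreated and the other received prednisolone at 250 µg per ml for 16 hours. Cells were then fixed, and chromatin bound by NR3C1 was immunoprecipitated and sequenced (ChIP-seq). The series also has NR3C1 lists from cells with wild-type STAT5B (WT line) and STAT5B lists from both lines, which are used below only as points of reference. Each group was 1 library, so no difference between lists has a replicate check, no test was made, and the spread between cultures is unknown. Neither RNA nor protein was analysed here, so the T-cell identity of the line and the activity of any gene were not checked against markers.

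NR3C1 is a hormone-activated transcription factor. Without ligand it is held by HSP90 and other chaperones, largely in the cytoplasm. With a glucocorticoid such as prednisolone it enters the nucleus and binds DNA, typically as a dimer at a palindrome made of the hexamers AGAACA and TGTTCT, often far from promoters and in chromatin that is already open. In lymphoid cells glucocorticoids arrest growth and induce apoptosis, partly through the BH3-only gene BCL2L11, and they are a mainstay of leukaemia treatment. Signals through the interleukin-7 receptor and STAT5 favour survival of the same cells.

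Sequence was available only for the stretch from 250 bases before to 50 bases after annotated start sites (RefSeq, GRCh38.p14), and not for every gene. Of 22049 such windows of 15724 protein-coding genes, 258 windows of 240 genes overlapped an NR3C1 region. The 4 stretches printed next show the strongest overlap (FKBP5), the strongest region with its summit inside a window (FAM13A), a stretch with 1 arm of the palindrome (NME1-NME2) and a promoter also held by STAT5B (CTNNB1). FKBP5 is given as the 250 bases before its start site and the others as up to 50 bases on either side of the summit, ending before the start site. All run 5′ to 3′ on the gene's strand, and capitals mark a match to AGAACA or its reverse complement TGTTCT.
FKBP5 (chr6:35728584-35728833, minus strand): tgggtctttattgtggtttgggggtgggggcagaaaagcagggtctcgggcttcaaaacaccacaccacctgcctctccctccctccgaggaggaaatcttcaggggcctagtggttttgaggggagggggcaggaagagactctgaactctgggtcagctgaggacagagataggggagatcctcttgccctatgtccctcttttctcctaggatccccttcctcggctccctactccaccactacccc
FAM13A (chr4:88823233-88823305, minus strand): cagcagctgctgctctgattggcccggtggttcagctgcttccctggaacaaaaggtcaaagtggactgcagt
NME1-NME2 (chr17:51153481-51153558, plus strand): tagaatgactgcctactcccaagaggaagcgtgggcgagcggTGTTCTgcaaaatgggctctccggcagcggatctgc
CTNNB1 (chr3:41199377-41199477, plus strand): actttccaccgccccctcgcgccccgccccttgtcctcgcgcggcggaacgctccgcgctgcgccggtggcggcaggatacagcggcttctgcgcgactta
Only the NME1-NME2 stretch held the hexamer. The FKBP5 stretch held none. The region that reaches into it had its summit 468 bp downstream of the start, outside the printed bases, so the stretch does not show the sequence at that summit.

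The full palindrome (AGAACA, 3 bases of any kind, TGTTCT), which reads the same on both strands, was found in 0 of the 22049 windows, and so in 0 of the 258 that overlapped a region. The hexamer AGAACA, counted on either strand and lying within that palindrome, was present in 33 of the 258 windows (12.8%, 95% interval 8.97 to 17.5), compared with 11.8% of all windows. The STAT-type motif TTCNNNGAA, which also reads the same on both strands, was present in 26 of the 258 (10.1%, 6.69 to 14.4), compared with 6.79% of all windows. Where the summit itself lay in the window the shares were 13.0% and 10.5% of 200 windows. For both motifs the share of all windows lay inside the interval, only just for the STAT-type motif. These counts cover promoters only, and the sequence of the many regions outside them was not analysed here. The intervals here and below are exact Clopper-Pearson intervals and cover counting error over the regions or genes of these libraries only.

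Without prednisolone NR3C1 was called only near an end of PGAM1 and of COX17, an end being either boundary of the gene span. PGAM1 encodes the glycolytic enzyme phosphoglycerate mutase, and COX17 encodes a copper chaperone of cytochrome c oxidase. The PGAM1 region (chr10:97425865-97426104 on hg38) had a fold enrichment of 24.2 and a −log10 q of 42.2, with its summit 165 bp from the gene end. The COX17 region (chr3:119677034-119677371) had a fold of 23.0 and a −log10 q of 40.8, with its summit 260 bp from the gene end. Fold enrichment is the ratio of ChIP pileup to local background at the summit, and both it and −log10 q are the authors' own values for each region. Both sites were still called with prednisolone, at folds of 31.4 and 29.0, where they ranked only 208th and 235th by −log10 q. They were also the only chromosomal regions of the untreated WT line, at folds of 18.0 and 16.7, and were called in the treated WT line at 23.2 and 16.9. No STAT5B list of either line had a region at these sites. They are therefore sites called in all 4 NR3C1 lists whatever the treatment or STAT5B form.

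The other 2886 regions of the prednisolone list had no untreated counterpart. Their strength was strongly skewed (plot of the fold distribution). Over all 2888 regions fold ran from 1.56 to 118, with a median of 8.26, a 10th percentile of 5.43 and a 90th percentile of 22.4. A fold of at least 5 was reached by 2712 regions (93.9%), at least 10 by 1012 (35.0%), at least 20 by 335 (11.6%), at least 50 by 65 (2.25%) and at least 100 by 4. Most regions thus had folds below 10, with a thin tail of strong ones. Their median −log10 q was 11.0, well above the lowest of 2.01. The strongest decile by −log10 q, 288 regions, held 31.8% of the reads summed over all summits. That sum includes local background reads, and the share without regions of high local background was not computed. The median region was 218 bp wide and the widest 1725 bp, the latter with a fold of only 2.05 over a high local background. The 2 regions called without prednisolone, at folds of 24.2 and 23.0, would fall in the upper tail of this distribution.

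**Figure D1:**
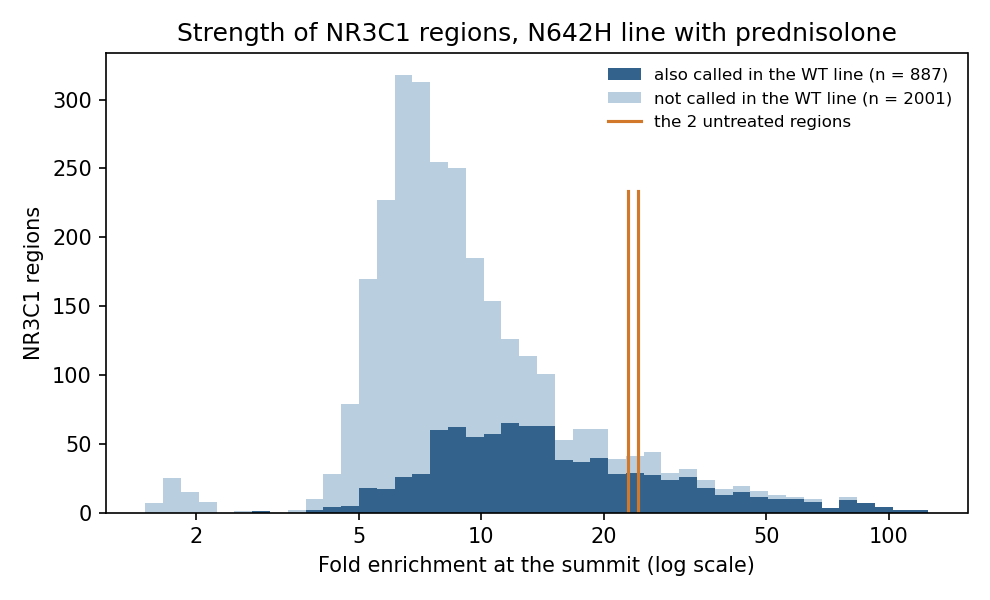
Histogram of fold enrichment at the summit (log scale) for the 2888 NR3C1 regions of the N642H line with prednisolone, stacked by whether the region overlapped one called in the WT line with prednisolone (887) or not (2001), with vertical lines at the folds of the 2 untreated regions. The main peak lies below a fold of 10, shared regions make up most of the right tail, and a small separate group sits near a fold of 2.

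Read counts at each summit could be recovered from the deposited folds and p-values for all regions of this list. The pileup had a median of 18 reads, a 10th percentile of 11 and a 90th percentile of 56. The highest pileup was 274, which equals the narrowest region of 137 bp counted on both strands, and 25 regions reached at least 80% of it. These 25 were not all strong sites. Regions near SHCBP1 with pileups of 249 had folds of only 2.05 and 2.11, over local backgrounds of 121 and 117 reads. The strongest regions of KLF13 and SOCS1 had pileups of 267 at folds of 114 and 95.5. How the 25 divided between such low and high folds was not counted. Whether a cap on duplicate reads limited the strongest folds was not tested. The small group near a fold of 2 consisted of 58 regions with a local background of 10 or more times the level of the genome (median fold 1.82, highest 4.01). Of these 24 lay on chromosome 16 and 19 on chromosome 1, in runs far from most genes. They are called high-background regions below.

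The 20 regions with the highest −log10 q had folds between 73.9 and 118. All 20 were also called in the WT line, 5 lay at a STAT5B region of untreated N642H cells, and 18 lay at a STAT5B region of prednisolone-treated N642H cells. Over all 2888 regions these shares were 30.7%, 27.8% and 7.76%. By place, 13 were intergenic, 5 were inside a gene and 2 were within 1 kb of a gene end. At all 20 the pileup was at least 188 reads over a local background of 0.805 to 2.26.

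Several of them lay at genes of the receptor's own regulation. FKBP5 encodes FKBP51, a co-chaperone that lowers the receptor's affinity for hormone. Its region at the start site (summit 468 bp downstream) had a fold of 106, another 3450 bp upstream of the start, at the neighbouring ARMC12, had 87.9, and one deep in the gene had 59.2. The same 3 were called in the WT line at 73.0, 27.3 and 42.7. A further 3 regions in FKBP5 had folds of only 4.27 to 5.34 and were not called in the WT line. NR3C1 itself had a region of fold 80.1 located 166684 bp from the gene (WT line 55.9), one of 18.4 beside it, and within the gene only 1 region, of fold 4.67. TSC22D3, the gene of the glucocorticoid-induced leucine zipper GILZ, had folds of 106 and 48.3 at 39001 and 35996 bp, where PRPS1 is the nearest gene. Nearer to TSC22D3 lay regions of 7.64 and 10.7, and inside it regions of 33.2 and 13.3. At all 3 genes a few strong regions stood among weak ones, and the strongest one lay at a start site only for FKBP5.

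The Krüppel-like factors KLF13 and KLF9 are transcription factors and known glucocorticoid targets. KLF13 had a fold of 114 in the gene, 39091 bp downstream of its start (WT line 76.9). It also had 27.3 and 9.17 just before the start and 8.04 to 11.9 at 3 other sites inside. KLF9 had a single strong region 4607 bp before its start, of fold 77.6 in the N642H line and 41.1 in the WT line, and 1707 bp wide. A region 163227 bp from KLF9, in TRPM3, had a fold of 41.0. The 2 genes thus differed in layout, with KLF13 held at 6 linked sites and KLF9 at 1.

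Genes that restrain cytokine and mitogen signalling, and genes for RNA-decay and antiproliferative proteins, were also represented. SOCS1, a feedback inhibitor of JAK kinases, had regions of fold 95.5, 33.9 and 48.4 at 30017, 21207 and 16638 bp from the gene. The outer 2 were called in the WT line at 34.4 and 25.3, whereas the middle one was not. The middle one lay at one of the stronger STAT5B regions of untreated N642H cells (fold 32.9), still called with prednisolone at 12.6. DUSP1, a MAP kinase phosphatase gene, had 1 region 1342 bp away, of fold 67.4 (WT line 19.2). ZFP36L2, an mRNA-decay factor gene, had 99.3 at 9864 bp (WT line 50.1). The antiproliferative genes BTG1 and TOB1 had strong regions only at a distance, 79.1 at 109437 bp and 90.1 at 41452 bp, called in the WT line at 70.8 and 65.8.

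Strong regions also lay at IKZF1, IL7R, CCND3 and CXCR4. IKZF1, which encodes the lymphoid transcription factor Ikaros, had a fold of 92.5 inside the gene (WT line 34.0) and of 62.0 at 11101 bp beyond it (not called in the WT line). IL7R, the interleukin-7 receptor α chain, had 53.8 at 2326 bp before the gene (WT line 14.9), and 81.6 at 95109 bp in SPEF2 (WT line 40.0). CCND3, which encodes the G1 cyclin D3, had 92.1 (WT line 39.8) and 4 weaker regions of 6.14 to 9.76. All 5 CCND3 regions lay at an untreated STAT5B region. CXCR4, a chemokine receptor gene, had 81.5 at 18254 bp (WT line 45.4) and, farther out, 37.2 and 30.6 that were not called in the WT line.

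**Figure D2:**
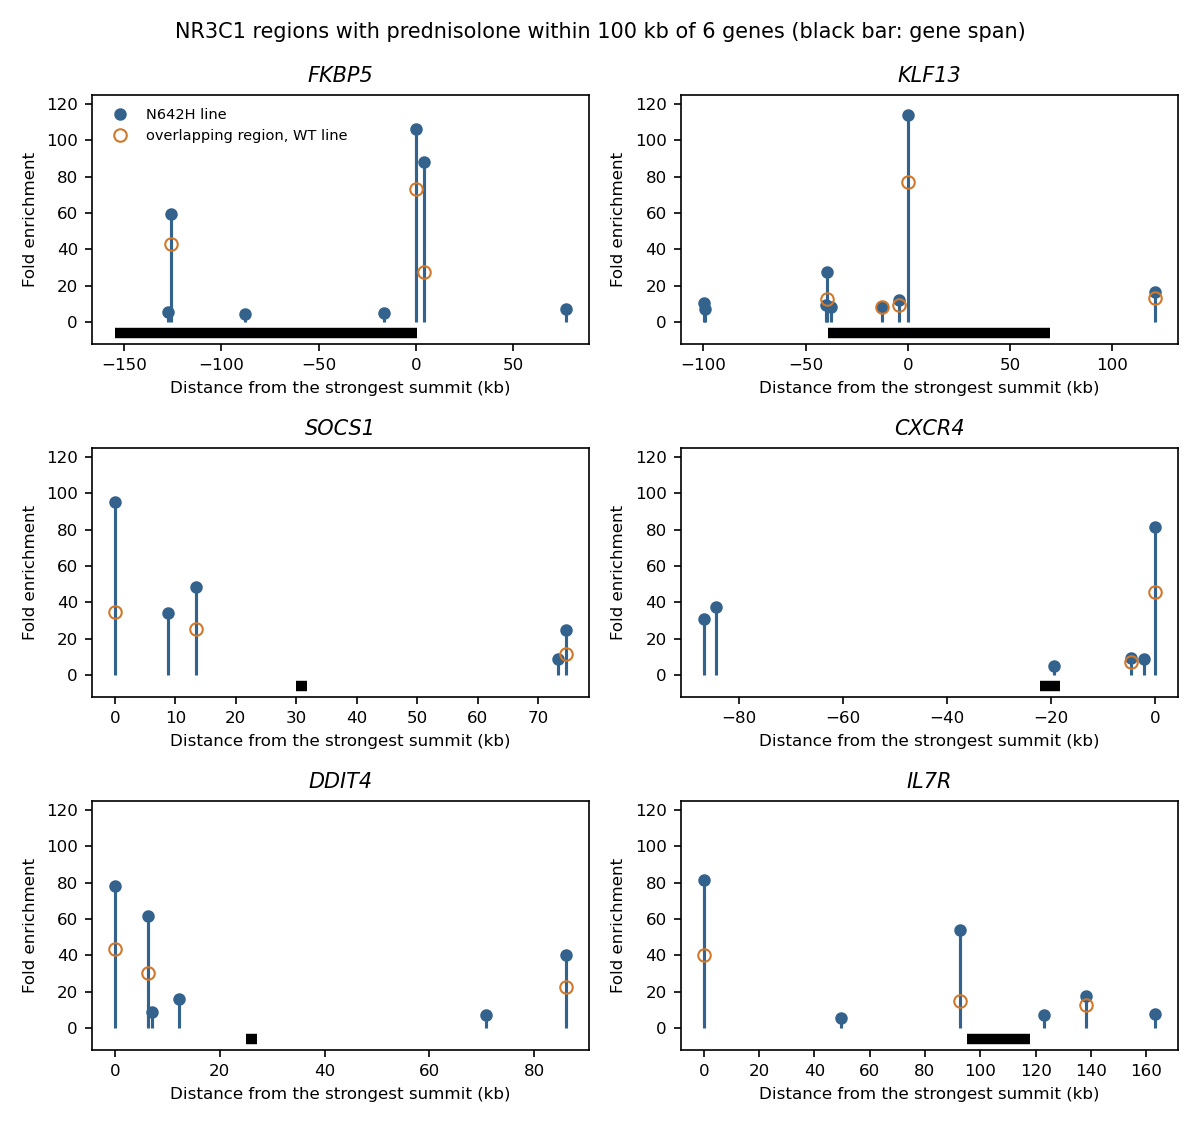
Fold enrichment of every NR3C1 region within 100 kb of 6 genes in the N642H line with prednisolone (filled points) and of the overlapping region of the WT line where one was called (open circles), against distance in kb from the strongest summit; black bars are gene spans. Each gene has 1 to 3 tall regions among low ones, the tallest lies at an end of the gene only for FKBP5, and the SOCS1 region of fold 33.9 has no open circle.

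The remaining top sites were near genes not described above, among them TXNIP and DDIT4 of the glucocorticoid response list read below. The highest fold of the list, 118, lay 32524 bp from SMOX, which encodes the polyamine-degrading spermine oxidase, and the same site had 20.2 in the WT line. A region of 92.1 between HJV (10105 bp) and TXNIP, a thioredoxin-binding protein gene whose start is 10786 bp away, had 9.28 in the WT line. Others lay near HTR5A (83.7), a serotonin receptor gene, in KIF3C (73.9), a kinesin gene, near GNLY (86.2), which encodes the cytolytic protein granulysin, near LOC107985876 (75.2), and near ANAPC16 (77.9). The last is also 24932 bp before the start of DDIT4, an mTORC1 inhibitor gene. Within the 20, the fold listed for the WT line ran from 9.28 to 76.9, and the fold was higher in the N642H line at every site, as ranked by that line. Folds of different lists depend on each library's depth and background, so this describes the lists and does not measure a change.

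Across the whole list, stronger regions were shared with the WT line at higher rates. Regions overlapping a WT region numbered 887 of 2888 (30.7%), with a median fold of 13.3, while the 2001 others had a median of 7.24. In quintiles by −log10 q, from strongest to weakest, 70.8%, 45.4%, 21.5%, 9.88% and 6.06% were shared (plot of features by strength). Shared summits lay a median of 22 bp apart, and 90% within 72 bp. The WT list is shorter, with 995 regions, a similar median fold of 8.68 and a highest fold of 76.9. When the N642H list was cut to its 995 strongest regions, 62.3% were shared.

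Still, 79 regions with a fold of at least 20 had no WT region. Those with the highest −log10 q were in DLEU7 (82.4), a gene in a part of chromosome 13 often deleted in lymphoid leukaemia, 2700 bp from the tumour suppressor gene NF2 (80.3), 216669 bp from PTPRC (52.9), beyond IKZF1 (62.0), in TSC22D4-C7ORF61 (65.8), at the end of ANGPTL4 (56.7), which encodes a lipoprotein lipase inhibitor, near NUP160 (44.2) and in PCDH15 (55.7). None of these 8 lay at an untreated STAT5B region, and only the DLEU7 region lay at a STAT5B region with prednisolone (fold 8.99). Of all 2001 regions without a WT region, 29.6% lay at an untreated STAT5B region. Of all 2888 regions, 7.76% lay at a STAT5B region with prednisolone. These 8 were chosen after their values were seen. With 1 library a line, line and library cannot be told apart.

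Overlap with untreated STAT5B regions varied less with NR3C1 strength than sharing with the WT line did. Untreated N642H cells had 4542 STAT5B regions, and 803 NR3C1 regions (27.8%, 26.2 to 29.5) lay at one. The median fold was 7.92 at these and 8.40 at the rest. From the strongest to the weakest quintile the share was 24.4%, 25.6%, 28.9%, 28.6% and 31.5%. Only 446 STAT5B regions were called with prednisolone, and 224 NR3C1 regions (7.76%, 6.81 to 8.79) lay at one, or 11.4% in the strongest quintile and 6.23% in the weakest. Without high-background regions, a count added after the values were seen, 181 of 2830 (6.40%, 5.52 to 7.36) lay at one. The strongest quintile held 0 high-background regions and the weakest 20. Shares by quintile without them were not computed. Of regions shared with the WT line 23.8% (21.0 to 26.7) lay at an untreated STAT5B region, and of the others 29.6% (27.6 to 31.6). By place, the share was 55.4% (50.1 to 60.7) at gene ends, 23.9% inside genes and 24.1% between genes. Libraries of one line may share an input control, and its part in the overlap was not tested.

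**Figure D3:**
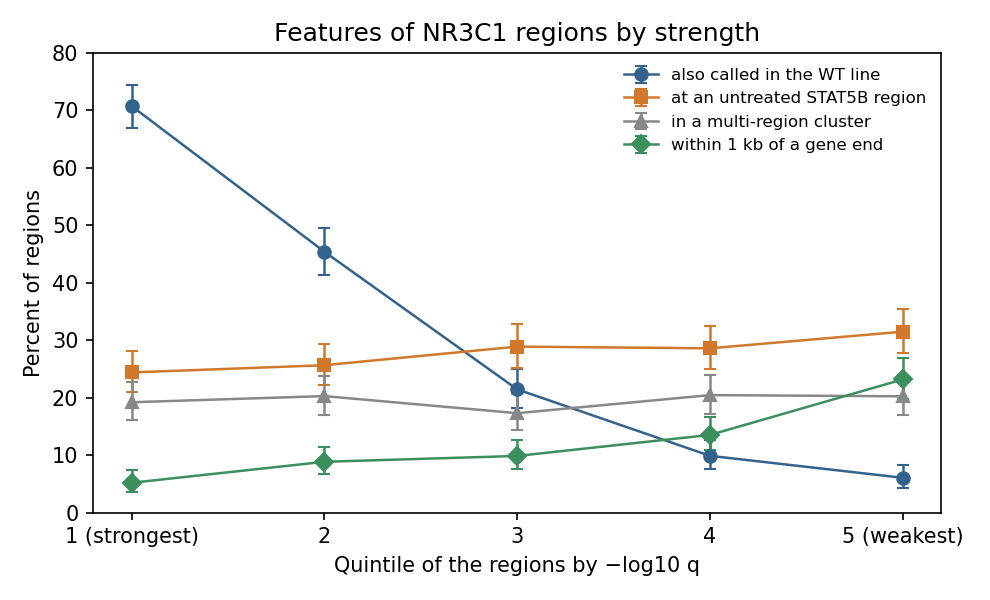
Percent of NR3C1 regions of the N642H line with prednisolone in each quintile by −log10 q that were also called in the WT line, lay at a STAT5B region of untreated N642H cells, lay in a multi-region cluster, or lay within 1 kb of a gene end; bars are exact 95% intervals. Sharing with the WT line drops from 70.8% to 6.06%, the gene-end share climbs from 5.19% to 23.2%, and the cluster share stays between 17.3% and 20.5%.

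By place, 350 regions (12.1%, 11.0 to 13.4) had a summit within 1 kb of an end of a protein-coding gene, 1312 (45.4%, 43.6 to 47.3) lay farther inside a gene and 1226 (42.5%, 40.6 to 44.3) lay between genes. Of the 1420 regions outside gene spans the median distance to the nearest gene was 38602 bp. Of all regions, 851 (29.5%) lay over 20 kb from any protein-coding gene, 493 (17.1%) over 100 kb and 141 (4.88%) over 500 kb. Without the high-background regions these counts were 794 (28.1%), 438 (15.5%) and 112 (3.96%), and the median distance outside gene spans was 34227 bp. The gene-end share was higher among weaker regions. This share was 5.19% in the strongest quintile, then 8.84%, 9.86% and 13.5%, and 23.2% in the weakest. The share between genes was 45.3% in the strongest quintile and 35.3% in the weakest. Regions at an untreated STAT5B region were at gene ends in 24.2% of cases (21.2 to 27.3), compared with 7.48% (6.39 to 8.70) of the rest.

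Strand and start sites were available for 15843 protein-coding genes, none on chromosome 8, which left 2782 regions. Their median distance to a start site was 44458 bp, and 315 (11.3%) lay within 1 kb of one, 220 of them upstream and 95 at or downstream of it. A further 25.1% lay 100 to 500 kb away and 6.43% beyond. In the strongest quintile 17 of 553 regions (3.07%, 1.80 to 4.88) were within 1 kb, and in the weakest 124 of 556 (22.3%, 18.9 to 26.0). Median distances were 53652 and 31454.5 bp. The strong NR3C1 regions of this line thus lay mostly away from listed start sites, and FKBP5 was an exception.

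**Figure D4:**
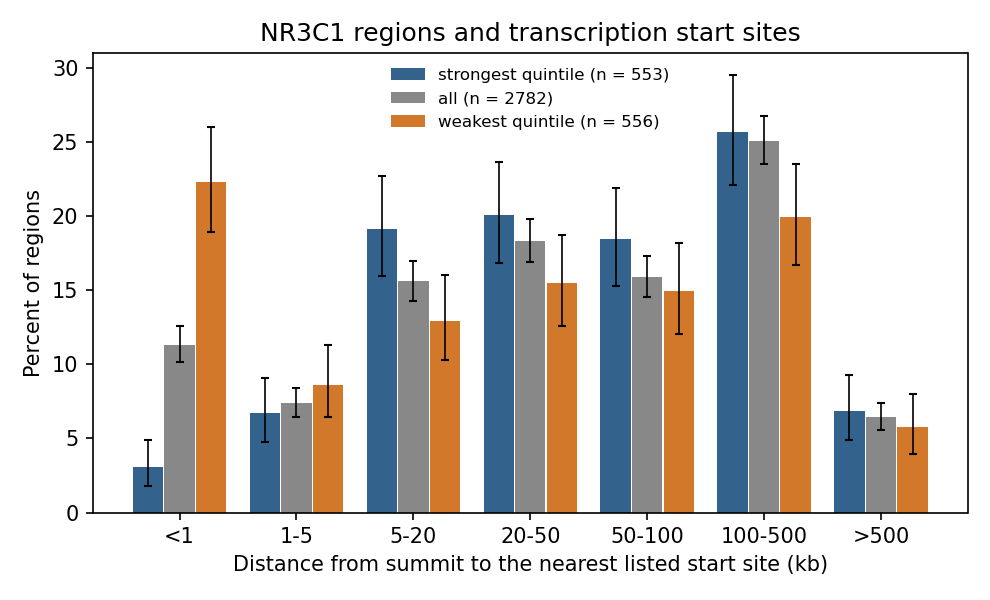
Percent of NR3C1 regions by distance in kb from the summit to the nearest listed start site, for the strongest quintile (553), all 2782 regions off chromosome 8, and the weakest quintile (556); bars show exact 95% intervals. Within 1 kb the weakest quintile holds 22.3% and the strongest 3.07%, and all 3 groups have many regions at 100 to 500 kb.

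Regions at the promoter windows were also weak. These 213 regions had a median fold of 6.74, compared with 8.40 for the others, and 6 reached a fold of 20. Only 32 (15.0%) were shared with the WT line, while 138 (64.8%) lay at an untreated STAT5B region. Next to FKBP5, the strong ones were at FAM13A (45.6, summit 23 bp before the start, WT line 22.1), at COX17 (29.0, one of the untreated sites), RFESD (28.0) and COPS9 (20.9), and at FOS (21.5, summit 463 bp before the start), an AP-1 subunit gene. The region at the CTNNB1 promoter printed above, the gene of β-catenin, had a fold of 12.1 and lay at STAT5B regions of 8.11 without and 7.19 with prednisolone. The region at the NME1-NME2 promoter, with its hexamer, had 12.6 and was not called in the WT line.

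Chromosomes differed in the number of regions for each gene, a measure that also depends on how many genes a chromosome holds. Chromosome 13 had 28.6 regions for each 100 protein-coding genes, chromosome 2 had 24.3 and chromosome 18 had 23.1. Chromosome 19 had 5.04, chromosome 11 had 8.25 and the X chromosome had 8.61. Chromosome 13 holds 336 protein-coding genes and chromosome 19 holds 1410, so these values do not give density along the chromosome. Density by length and the copy number of these chromosomes in the line were not analysed here.

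Regions often came in clusters. With summits at most 10 kb from the next, 563 regions (19.5%, 18.1 to 21.0) formed 240 clusters (18.0% of regions without the high-background ones), of which 187 held 2 regions, 42 held 3 and 11 held more, with a median span of 4597 bp. The strongest member of a cluster had a median fold of 11.9, the 323 other members 6.37 and the 2325 lone regions 8.31. The order of strongest and other members follows from how they were picked. Of the other members 55 of 323 (17.0%) were called in the WT line, compared with 109 of 240 strongest members (45.4%) and 31.1% of lone regions. In 25 clusters every region was called in the WT line. The share of regions in a cluster was 19.2% in the strongest quintile and 20.2% in the weakest.

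The 2 largest clusters had low folds. These, of 13 and 11 regions on chromosome 16 nearest to LOC124903767 and SHCBP1 (chr16:34572624-34595597 and chr16:46386367-46401640), were over 100 kb from those genes and made up wholly of high-background regions with folds of 1.60 to 2.11. None of their regions was called in the WT line or at an untreated STAT5B region, and every one was at a STAT5B region of the treated N642H list. Clusters of 5 and 4 high-background regions lay on chromosome 1 at over 500 kb from H3-7. Of the 53 clusters of 3 or more regions 11 held such regions, and 42 did not.

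Among the latter the one with most regions was in CLEC16A (chr16:11088380-11115044), an autophagy-related gene beside SOCS1, with folds of 8.28, 7.84, 19.1, 5.09 and 7.20, of which the 19.1 was called in the WT line. Near CCDC200 on chromosome 17, clusters of 5 and 4 regions had folds of 4.01 to 8.05. All 9 lay at untreated STAT5B regions and none was called in the WT line, and 1 was a high-background region. The ANAPC16 and DDIT4 cluster (chr10:72248445-72261317) held folds of 77.9, 61.4, 8.79 and 15.7, with 2 called in the WT line. The PTPRC cluster, 23944 bp from the gene of the leucocyte phosphatase CD45, held 6.85, 8.99, 11.0 and 16.0. A cluster of 4 in MTSS1 ran from 5.12 to 11.0.

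Of the 20 strongest regions 4 lay in clusters of 3. The following clusters of 3 were chosen after their values were seen. SOCS1 was the only one of them with 3 strong members (95.5, 33.9 and 48.4). KLF13 (8.04, 11.9 and 114), TOB1 with LOC124904102 (8.17, 90.1 and 8.40), CXCR4 (9.32, 8.49 and 81.5) and DLEU7 (8.27, 82.4 and 8.54) each had 1 strong member and a pair of weak ones. All 3 regions of the KLF13 cluster were called in the WT line, and none of the DLEU7 cluster.

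Genes with a summit inside their span or at most 20 kb away are called linked. With prednisolone 2178 of 19866 protein-coding genes were linked (11.0%), compared with 4 without (0.0201%), namely PGAM1, EXOSC1, COX17 and POPDC2. The WT line with prednisolone had 832 linked genes (4.19%), of which 759 were linked in both lines. Of the N642H genes 442 had 2 or more linked regions, 140 had 3 or more and 21 had 5 or more. With summits in the gene span only, 1147 genes were linked (5.77%), and within 50 kb 3343 (16.8%). A region with a fold of at least 20 was linked to 303 genes (1.53%). Linkage was higher in longer genes, being 6.87%, 8.94% and 17.1% in the short, middle and long of 3 equal groups of genes. Genes with most regions were MSI2 (9 regions), an RNA-binding protein gene, FHIT (8), a long gene at a fragile site, LDLRAD4 (7), KLF13, FKBP5, TG, CLEC16A and HDAC4 (6 each), and CCND3 and CAMK2D (5 each). Of these only KLF13, FKBP5, LDLRAD4 and CCND3 had a region with a fold above 80.

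The gene lists read from here on were chosen with earlier results of these data known. Their shares and intervals describe the lists and are not an independent check of enrichment. Of 30 glucocorticoid response genes 21 were linked (70.0%, 50.6 to 85.3), against 11.0% of all genes, and 16 of them by a region with a fold of at least 20, against 1.53%. The median of their strongest linked fold was 33.4, compared with 8.55 over all linked genes. In the WT line 20 were linked, against 4.19%. Besides genes described above, ZBTB16, a zinc-finger transcription factor gene, had folds of 46.3, 41.3, 10.3 and 4.63, all inside the gene. DDIT4 had a linked region of 61.4 and NFKBIA, the NF-κB inhibitor gene, had 33.4. BCL2L11, the gene of the cell-death protein BIM, had 26.4 inside the gene (WT line 10.5) and 6.37 at 244 bp outside its span. The 9 members with no linked region were PER1, SGK1, BTG1, TNFAIP3, CDKN1A, CDKN1C, ERRFI1, MT2A and RGS2. The nearest region was 34182 bp from SGK1, 92982 bp from RGS2 and 109437 bp from BTG1, and 303656 bp from PER1. For these genes, linkage missed some strong distant sites, such as the BTG1 region of fold 79.1. Of 15 genes of the glucocorticoid response in liver 2 were linked (13.3%, 1.66 to 40.5, with 11.0% of all genes inside the interval), GLUL (9.98) and ANGPTL4 (56.7).

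In the BCL2 family, the regulators of mitochondrial apoptosis, 7 of 20 genes were linked (35.0%, against 11.0% of all genes), and 2 of these in the WT line (10.0%, against 4.19%). The strongest linked region was inside BCL2L1, the gene of the survival protein BCL-XL, with a fold of 41.7. It was not called in the WT line, and lay at STAT5B regions of fold 17.1 without and 12.9 with prednisolone. BCL2L1 had 2 weaker regions of 6.79 and 5.52, at STAT5B regions of fold 4.71 and 13.2 that were called only without prednisolone. The region of 5.52 was called in the WT line at 7.27. BCL2 had 3 linked regions of 18.4, 14.1 and 4.99 and 2 more, of 8.61 and 7.35, at 21068 and 24573 bp, none of which was called in the WT line or at a STAT5B region. The NR3C1 regions of BCL2L1 thus overlapped STAT5B regions of untreated cells, and only the strongest also overlapped one with prednisolone. Those of BCL2 overlapped none in either condition. Other linked members were the BH3-only genes PMAIP1 (12.8), BID (10.3) and BMF (4.99), and the survival gene MCL1 (7.22), none by a region called in the WT line. Beyond the linking distance, a region of 60.6 lay 39183 bp from BMF, nearest to SRP14. It was called in the WT line at 39.1.

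Of 30 STAT5 target genes 14 were linked (46.7%, against 11.0% of all genes), and 5 in the WT line (16.7%, against 4.19%). Beside CCND3, BCL2L1, SOCS1 and BCL2 they included BCL6 (27.9, WT line 10.3), a transcriptional repressor gene, and the kinase genes PIM1 (19.6) and CDK6 (12.4), and SOCS2 (13.7). The PIM1 region lay at a STAT5B region of fold 25.8 and was not called in the WT line. MYC had a single linked region of only 4.03, at a STAT5B region. A region of 25.3 lay 178178 bp from MYC, its nearest gene. It was not called in the WT line or at a STAT5B region of the N642H line. In the IL7R and JAK-STAT pathway 8 of 20 were linked (40.0%, against 11.0%) and 6 in the WT line (30.0%, against 4.19%), among them IL7R (53.8), PTPRC (28.2), JAK1 (17.5), STAT5A and STAT5B (both by 1 region of 20.5 in STAT5B, with the same fold in the WT line), and also STAT3 (8.07) and IL2RG (8.92). The PI3K-AKT and FOXO list had 12 of 22 linked (54.5%, against 11.0%), and 5 in the WT line (22.7%, against 4.19%), led by DDIT4 (61.4), PIK3R1 (44.4), PIK3IP1 (31.0), RPTOR (26.6), RICTOR (26.0) and MTOR (24.7). This list is one of long genes, with a median span of 96912.5 bp compared with 24469 bp over all genes.

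Of 31 T-lineage transcription factor genes 17 were linked (against 11.0% of all genes), and 5 in the WT line (against 4.19%). IKZF1 (92.5), TOX (50.8) and IKZF3 (21.9) were linked by a region with a fold of at least 20, which makes 3 of 31, against 1.53% of all genes. Others were TCF12 (12.5), LEF1 (11.5), IKZF2 (9.82), ZBTB7B (9.45) and TLX3 (8.19), and the median strongest fold of the 17 was 8.04. Of 35 T-cell surface and signalling genes 19 were linked, and 8 in the WT line, against the same shares of all genes. CD7 (58.8), RAG2 (23.1) and CD69 (22.8) passed a fold of 20, which makes 3 of 35, followed by ITGA4 (12.1), and the median was 8.28. Both medians were close to the 8.55 of all linked genes. The T-lineage list has a median span of 65628 bp, and the part of gene length in these counts was not tested.

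**Figure D5:**
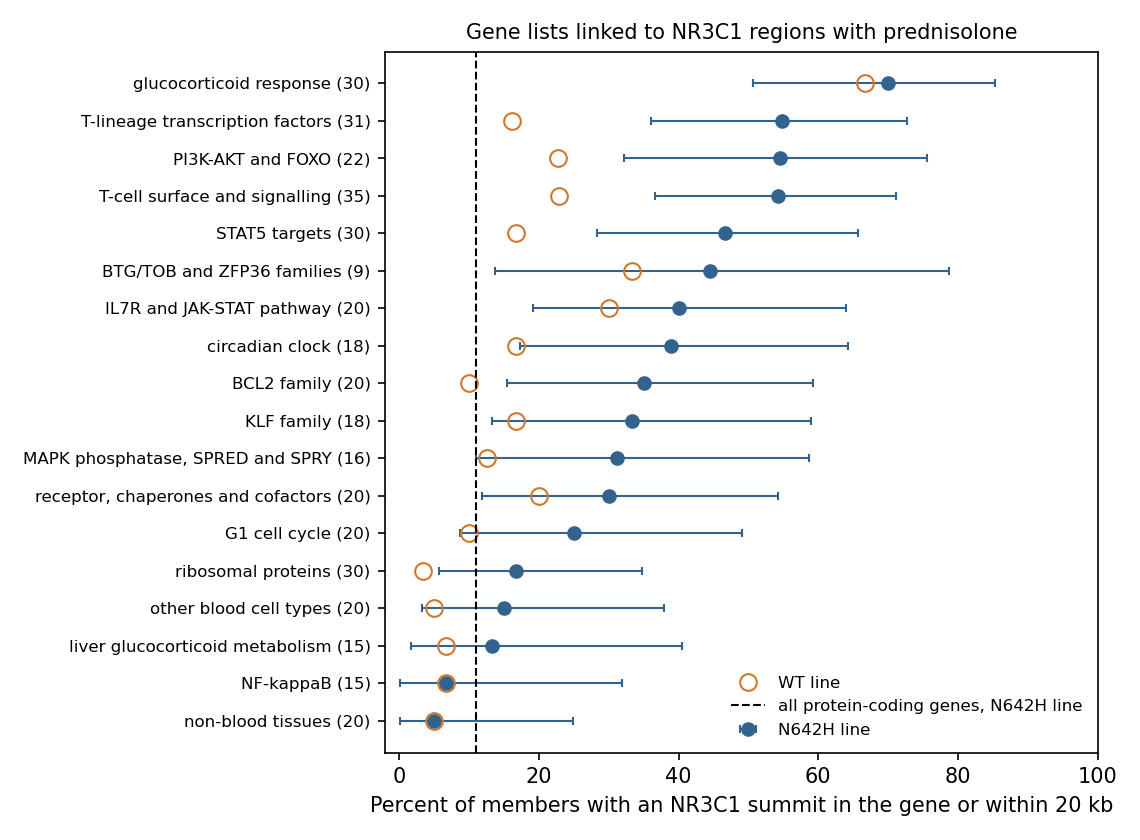
Percent of the members of 18 gene lists (number of members in brackets) with an NR3C1 summit in the gene or within 20 kb with prednisolone, in the N642H line (filled, exact 95% interval) and the WT line (open); the dashed line is the 11.0% of all protein-coding genes linked in the N642H line. Glucocorticoid response is highest at 70.0%, and non-blood, NF-κB and liver lists lie near or below the line. The lists were chosen with earlier results of these data known.

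The next 6 lists are read against the same 11.0% of all genes. KLF genes had 6 of 18 linked (33.3%), with KLF17 (12.7), KLF12 (9.80), KLF5 (9.74) and KLF7 (9.73) after KLF13 and KLF9. The BTG, TOB and ZFP36 families had 4 of 9 (44.4%), with BTG2 (9.62), ZFP36 (8.40) and ZFP36L1 (5.51) far below ZFP36L2. MAPK phosphatase, SPRED and SPRY genes had 5 of 16 (31.2%), led by DUSP1 (67.4) and DUSP2 (43.5). G1 cell-cycle genes had 5 of 20, with RB1 (29.7) and CDK6 after CCND3. Circadian genes had 7 of 18 (38.9%), led by HLF (44.6, not called in the WT line), DBP (39.2), NPAS2 (29.7) and NR1D1 (16.1), while PER1 had none. The receptor, chaperone and cofactor list had 6 of 20 (30.0%), of which only FKBP5 (106) was strong, followed by HSPA8 (14.6), STIP1 (7.73) and FKBP4 (7.57).

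The lists with the lowest shares lay close to the background of 11.0%. NF-κB genes had 1 of 15 linked (NFKBIA), genes of non-blood tissues 1 of 20 (PRM1, 24.9, beside the SOCS1 sites), genes of other blood cell types 3 of 20 (KLRD1, 15.2; ELANE, 14.5; CD79A, 6.19) and ribosomal protein genes 5 of 30, with a highest fold of 10.5 at RPL7. The intervals of these 4 lists, and those of the liver and G1 cell-cycle lists, held 11.0%.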

How the data were processed

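NR3C1 ChIP-seq peak lists of the N642H line were used, with the WT line and STAT5B lists for reference. BWA, MACS2, deepTools and hg38 are named in the submitters' processing notes, and their versions, the control used and sequencing depth are not given in the sources used here. Peaks were called per library, with −log10 q of at least 2.01 in the prednisolone list. The authors deposited for each peak a score, a fold enrichment (a ratio), −log10 p and −log10 q, and these p-values and q-values were not recomputed. Regions overlapping by at least 1 bp were counted as shared. Pileup was solved from fold (pseudocount 1) and −log10 p, and checked on simulated data. Genes were 19866 protein-coding genes of RefSeq (GRCh38.p14). Python 3.11.15, pandas 2.3.3, numpy 2.4.6 and scipy 1.17.1 were used.

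The members and gene lists were chosen with earlier results of these data known. Named genes were those at untreated regions, nearest to the 20 strongest regions and the 10 clusters with most regions, the 10 with most linked regions, up to 8 linked members of each list, glucocorticoid response members with none, and 14 followed genes. Other genes were chosen after their values were seen. One gene under this rule is not reported here. Alternatives were stricter limits, equal list length, other windows and cluster gaps. Coordinates count from 1.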

Additional observations from a re-analysis of the deposited data

Results flagged for a closer look

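The prednisolone list held 34 further NR3C1 regions on unplaced, random and decoy sequences, which no comparison above used. Their folds ran from 1.51 to 25.4 with a median of 4.81, and 15 of them were high-background regions. The untreated list of the same line had 0 such regions.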

How the results depend on the processing

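No paired analysis was possible because each group was 1 library and no result came from a test. All values rest on single libraries, and depth limits the weak regions, whose median pileup in the weakest quintile was 11 reads. With −log10 q of at least 5 the median fold was 8.82, the gene-end share 10.6%, the cluster share 17.9% and the share at untreated STAT5B regions 23.8%. With fold of at least 5 the median fold was 8.49, the cluster share 17.1% and the STAT5B share 23.9%. Without high-background regions the cluster share was 18.0%. With the 995 strongest regions, 993 had no untreated region, the median fold was 15.2, 6.83% lay at gene ends, 48.5% inside genes and 8.94% in clusters, 820 genes were linked, 62.3% were shared with the WT line and 24.2% lay at untreated STAT5B regions. A gene-end window of 500 bp gave 10.1%, and one of 5 kb gave 22.4%, with 39.0% inside genes. With all genes of the table the median distance of intergenic regions was 8470 bp. Linking within the span gave 1147 genes, within 50 kb 3343 and within 100 kb 5028. Linking each region only to its nearest gene within 20 kb gave 1536 genes instead of 2178, which was counted as not moved. Cluster gaps of 5, 25 and 50 kb gave 13.7%, 30.0% and 37.8%. A share or median was counted as moved when it left the interval of the main result, and a count when it changed by more than a set ratio. Sizeable changes in a count can therefore be scored as not moved. Of the values recomputed for these results 27 moved and 44 did not, and for members linked in each list, cluster counts and the share at treated STAT5B regions 41 moved and 112 did not. In the setting without high-background regions, these were removed only from the prednisolone NR3C1 list and the untreated STAT5B list of the N642H line. Local background was not used for the untreated NR3C1 list or the WT lists, so such regions were not removed there. Other than fewer regions or wider windows, causes were not tested.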
